A study of Mus musculus with 31 samples.

Results

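Arginase 1 (Arg1) and 6 further genes that are read as marks of alternatively activated or acutely responding mouse macrophages were followed across sorted phagocytes of the mouse heart. The 7 genes, Arg1, Chil3, Retnla, Mgl2, Clec10a, Il4ra and Saa3, were taken by symbol from the 24421 gene symbols counted in every library, and all 7 were among the 13039 genes that had enough reads to be tested. The libraries came from hearts after myocardial infarction (MI), in which the left anterior descending artery was permanently tied off, and from hearts in the steady state (SS). All mice were of the Balb/c strain and 8 to 12 weeks old. From digested hearts 4 populations were sorted: CD11c-negative monocyte-derived cells, which the descriptions call macrophages, CD11c-positive monocyte-derived cells (moDCs), and the conventional dendritic cells cDC2 and cDC1. There were 4 libraries each of MI macrophages, MI moDCs and MI cDC1, 3 of MI cDC2, and 4 of each SS population. No source used here gives the sorting antibodies, the time after ligation, a sham operation, the sex of the mice or whether hearts were pooled. Adjusted p-values therefore measure the spread between these samples, and any difference in preparation between all MI and all SS hearts cannot be told apart from MI itself.

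Interleukin 4 and interleukin 13 act on macrophages through the shared receptor chain IL-4Rα, coded by Il4ra, which pairs with the common gamma chain (Il2rg) or with IL-13Rα1 (Il13ra1) and signals through Janus kinases to the transcription factor STAT6. In mouse macrophages this pathway induces Arg1, whose enzyme splits arginine into ornithine and urea, Chil3, coding for the secreted chitinase-like protein Ym1, Retnla, coding for the secreted resistin-like molecule RELMα, and Mgl2, a galactose-type C-type lectin receptor (CD301b). Clec10a codes for the sister lectin CD301a. Saa3 codes for a serum amyloid A protein, an acute-phase product that macrophages and stromal cells make under inflammatory stimuli. In mouse macrophages Arg1 can also be induced by hypoxia through HIF-1α and by C/EBPβ, without IL-4.

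The stretches before the start sites are printed for the 4 members whose window held a match to the letters searched, so that the letters can be seen beside the values that follow. They are RefSeq sequences of GRCm38.p6, ended at the annotated gene. 5 of the 7 members had an entry (Chil3, Retnla, Mgl2, Il4ra and Saa3). Capitals mark matches, on either strand, to letter patterns bound by STAT6 (TTCNNNNGAA), other STATs (TTCNNNGAA), C/EBP factors (TTGCNNAA), NF-κB (GGGANNNNCC) or AP-1 (TGANTCA).
Retnla, chr16:48842359-48842550, plus strand: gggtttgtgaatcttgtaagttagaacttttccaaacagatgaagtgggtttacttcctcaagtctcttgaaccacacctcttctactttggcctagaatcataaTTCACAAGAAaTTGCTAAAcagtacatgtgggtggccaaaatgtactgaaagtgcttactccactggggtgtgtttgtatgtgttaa
Chil3, chr3:106167565-106167814, minus strand: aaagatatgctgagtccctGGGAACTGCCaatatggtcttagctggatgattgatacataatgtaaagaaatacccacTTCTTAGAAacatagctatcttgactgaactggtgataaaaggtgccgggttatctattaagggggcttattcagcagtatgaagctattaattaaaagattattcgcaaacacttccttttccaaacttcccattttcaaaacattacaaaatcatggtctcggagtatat
Mgl2, chr11:70130107-70130328, plus strand: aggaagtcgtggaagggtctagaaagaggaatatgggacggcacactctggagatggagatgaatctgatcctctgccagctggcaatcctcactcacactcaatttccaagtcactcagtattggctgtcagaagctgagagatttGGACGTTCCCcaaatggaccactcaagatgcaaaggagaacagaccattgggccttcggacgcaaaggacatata
Saa3, chr7:46715701-46715926, minus strand: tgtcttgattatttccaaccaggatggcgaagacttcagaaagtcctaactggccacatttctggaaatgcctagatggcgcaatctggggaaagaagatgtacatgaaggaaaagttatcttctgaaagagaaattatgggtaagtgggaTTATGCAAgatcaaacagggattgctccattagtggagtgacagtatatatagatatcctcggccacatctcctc
In the Retnla stretch the STAT6 pattern (TTCACAAGAA) lay 145 to 136 bases before the RefSeq start site and the C/EBP pattern (TTGCTAAA) followed it at 134 to 127. These letters occurred in 5.85% and 9.56% of the 250-base windows of 32851 RefSeq promoters. The Chil3 stretch held the shorter STAT pattern (TTCTTAGAA, in 7.02% of windows) and the NF-κB pattern (GGGAACTGCC, in 17.6%). The Mgl2 stretch held the NF-κB pattern on the minus strand, and a second one, on the minus strand at 14 to 5 bases before the start site, lay outside the printed stretch. The Saa3 stretch held the C/EBP pattern on the minus strand. The Il4ra window held none of the 5 patterns. A match describes letters and not binding, which was not measured here.

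Each library held between 9148624 and 16531349 reads in genes. Values are CPM, a gene's reads scaled to the size of its library, made here from the deposited counts with edgeR's TMM factors. Reads outside any feature made up 6.85% to 10.95% of entries in MI libraries, 11.6% to 16.9% in SS libraries 1 and 4 and 6.42% to 9.26% in SS libraries 2 and 3, so each result was also computed against each pair of SS libraries. The listed markers separated the sorts in part. Xcr1, a chemokine receptor of cDC1, averaged 995 CPM in MI cDC1 and 909.9 CPM in SS cDC1, and at most 3.53 CPM in any other group. Cd209a, a lectin of cDC2 and moDCs, averaged 2394 CPM in MI cDC2 and 2258 CPM in SS cDC2, against 5.79 CPM in MI macrophages and 16.0 CPM in SS macrophages. In moDCs Cd209a averaged 379 CPM in MI and 406 CPM in SS. Of the other cDC2 markers Irf4, Itgax and Cd1d1 were highest in cDC2, Flt3, Zbtb46 and Kmo in cDC1 and Sirpa in macrophages. C5ar1, Adgre1 (F4/80), Fcgr1, Mertk, Csf1r and Cd14 were highest in macrophages in both states. Lyz2 and Cd68 were not. Lyz2 averaged 17880 CPM in SS macrophages, 19720 CPM in SS moDCs and 19550 CPM in SS cDC2. Cd68 averaged 730 CPM in MI macrophages and 930 CPM in MI moDCs.

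The 7 genes did not move as a block after MI. In macrophages 4 of the 7 rose (Arg1, Saa3, Chil3 and Il4ra), 2 fell (Retnla and Mgl2) and Clec10a did not pass the test, while 4.01% of the 13039 genes tested rose and 3.37% fell. In moDCs 1 fell (Retnla) and 6 did not pass, against 1.52% of all genes that rose and 3.32% that fell. In cDC2 1 rose (Il4ra) and 2 fell (Retnla and Chil3), against 4.41% and 6.63% of all genes. In cDC1, where 6 of the 7 had any reads, 1 rose (Il4ra) and 1 fell (Clec10a), against 2.16% and 6.73%. The members, and the gene lists used below, were chosen with earlier results of these data known. The shares of all genes are therefore given for scale and do not show an enrichment. Calls are adjusted p under 0.05 in edgeR's quasi-likelihood test over all 31 libraries. In bulk libraries fewer cells that express a gene and less of its RNA per cell cannot be told apart.

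**Figure D1:**
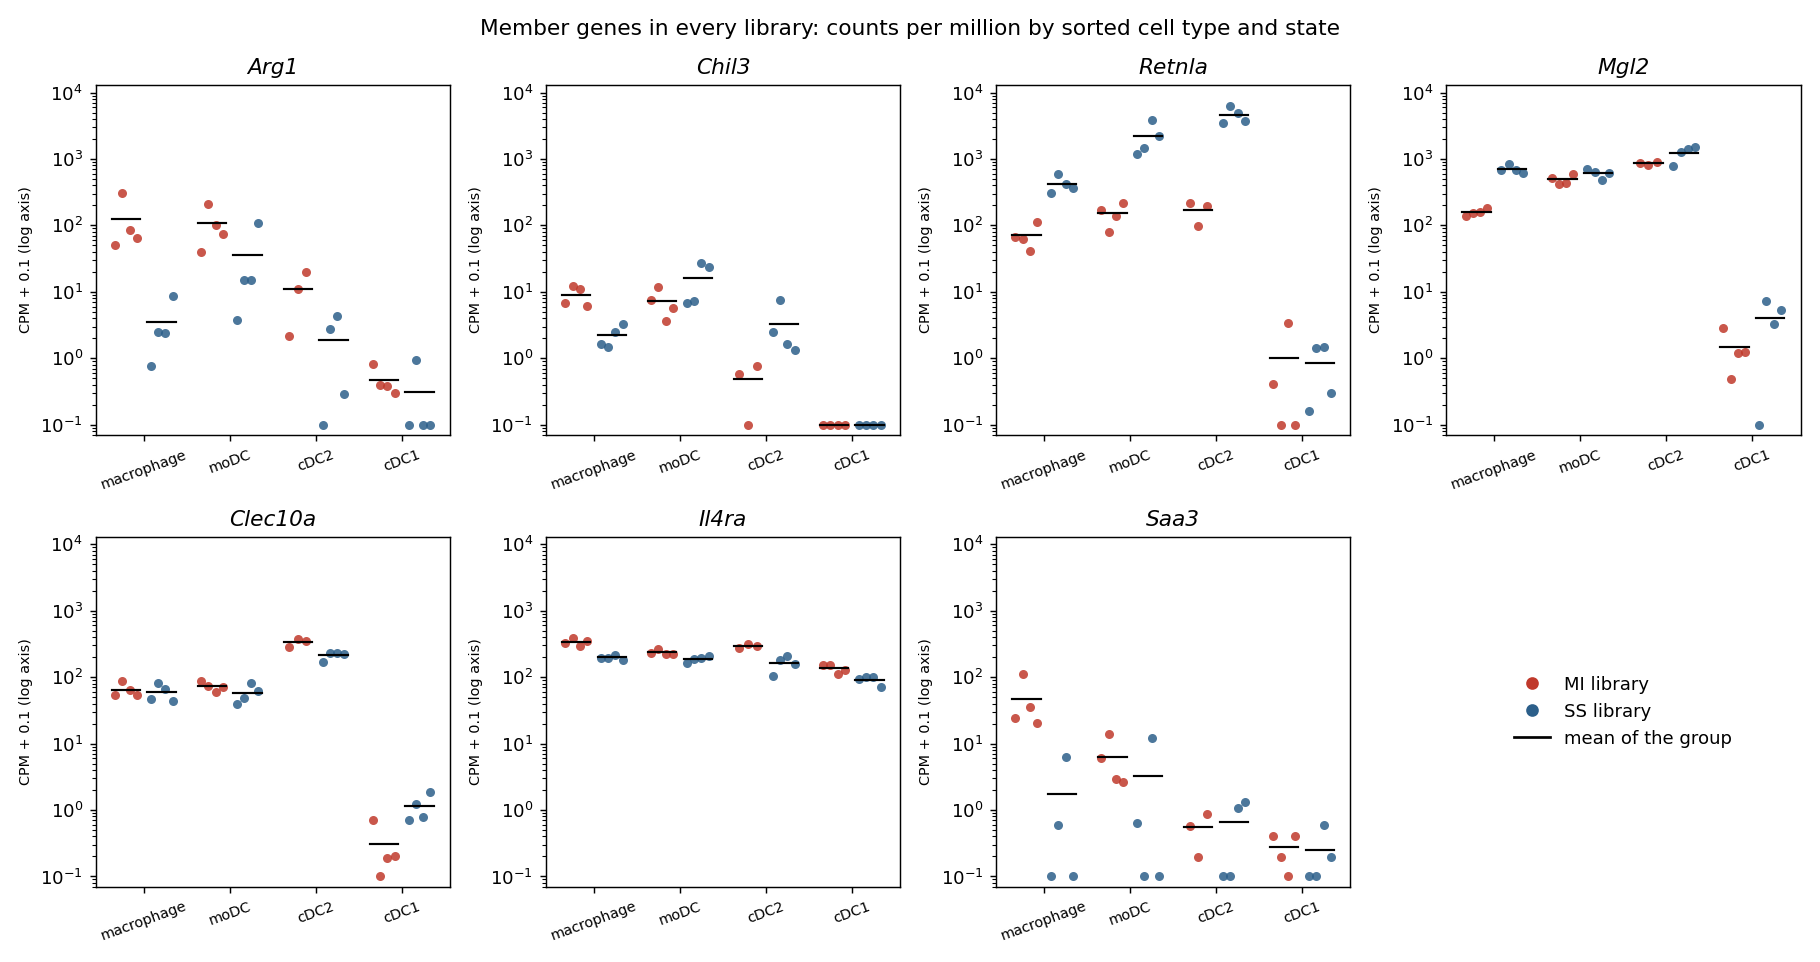
Each panel plots 1 gene, with every library as a point (CPM with 0.1 added, log axis), MI left of SS within each sorted cell type and a bar at the group mean. Retnla lies lower in every MI library than in any SS library of macrophages, moDCs and cDC2, whereas Il4ra lies between 71.4 and 390.1 CPM in all 31 libraries.

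**Figure D2:**
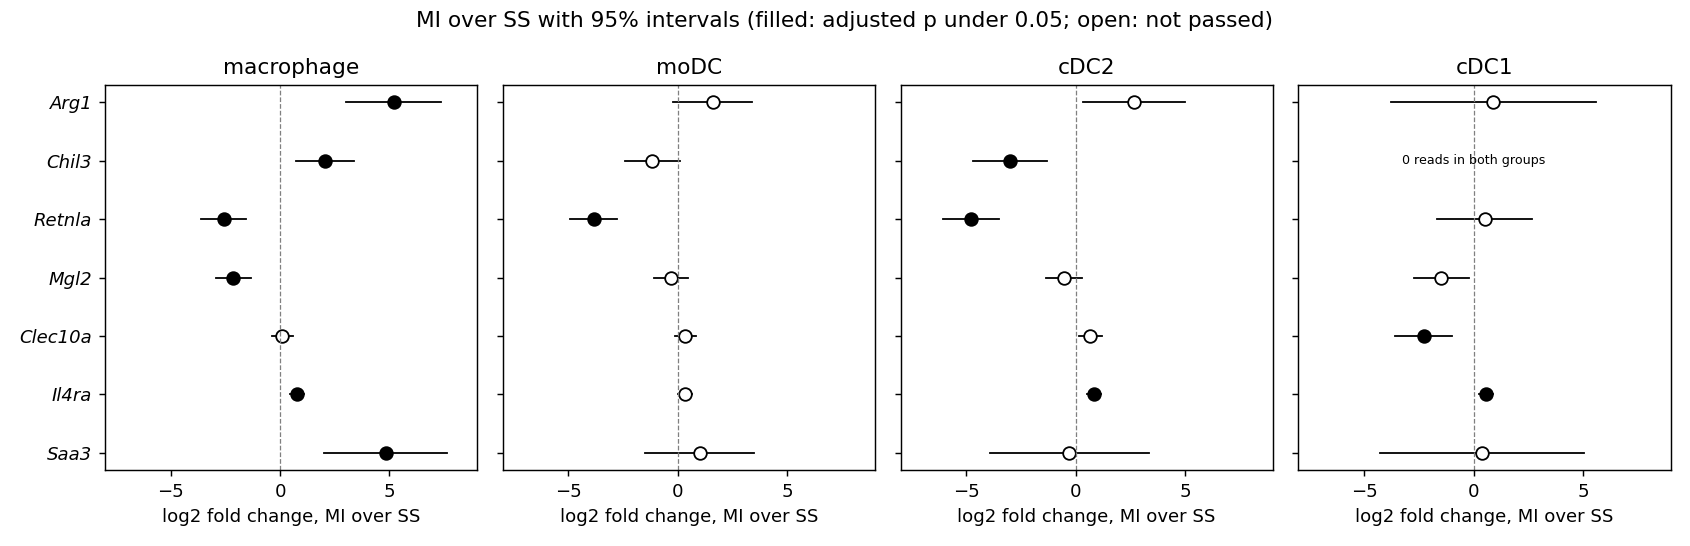
Points show the log2 fold change of MI over SS for each gene in each cell type, with 95% intervals as lines. Filled points passed the adjusted p of 0.05 and open points did not, and in cDC1 Chil3 had 0 reads in both groups.

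Il4ra (GRCm38 chromosome 7, 125552120 to 125579474, plus strand; GENCODE M21 positions, as for all members), the receptor chain through which IL-4 and IL-13 signal, was expressed in all 8 groups and was higher in every MI library than in any SS library of the same cell type. It had 326, 390.1, 291 and 349 CPM in MI macrophages, against 194, 194, 219 and 183 CPM in SS macrophages (1.72-fold, log2 0.78 ± 0.15 SE, adjusted p = 7.03e-04). In cDC2 it had 269.7, 318 and 289.6 CPM in MI, against 105, 184, 210.3 and 157 CPM in SS (1.78-fold, log2 0.84 ± 0.16 SE, adjusted p = 4.15e-04). Both rises passed under each of 39 alternatives.

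In cDC1 Il4ra had 151, 149.9, 110.2 and 129.9 CPM in MI, against 94.0, 101, 99.6 and 71.3 CPM in SS (1.48-fold, adjusted p = 0.0127), and it did not pass without MI replicate 2 (0.0524), without SS replicate 4 (0.0598) or against SS libraries 2 and 3 alone (0.0578). In moDCs it had 233, 265, 223 and 219.8 CPM in MI, against 164, 186, 194 and 206 CPM in SS (1.25-fold), and although the groups did not overlap the difference did not pass (adjusted p = 0.229). The MI effects did not pass the test of a difference among cell types (adjusted p = 0.366). The order of levels began with MI macrophages (339 ± 41.5 CPM, SD), MI cDC2 and MI moDCs and ended with MI cDC1 and SS cDC1 (91.4 ± 13.7 CPM), and of its neighbours the last pair alone differed beyond their spread.

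The ligands of this receptor were not seen in these cells: Il4 and Il13 had 0 reads in all 31 libraries, as did the decoy receptor gene Il13ra2. At a limit of 3 counts over a group this allows up to 0.0965 CPM in MI cDC2, the group with the fewest reads, and less in the others. The partner chains moved by cell type. Il2rg averaged 144 ± 16.2 CPM in MI and 68.7 ± 4.45 CPM in SS macrophages (2.1-fold, adjusted p = 0.0017), whereas in cDC1 it averaged 28.6 ± 13.2 CPM in MI and 62.4 ± 21.6 CPM in SS (2.18-fold lower, adjusted p = 0.00104, and 0.0724 against SS libraries 1 and 4 alone). Il13ra1 fell in cDC1 (1.53-fold, adjusted p = 9.88e-04) and in macrophages (1.32-fold, adjusted p = 0.04, not passed in 9 of 39 alternatives) and rose in cDC2 (1.44-fold, adjusted p = 0.00683, and 0.0542 against SS libraries 1 and 4 alone). The fall in macrophages was lost without any 1 of the MI macrophage libraries or of SS macrophage replicates 2 and 3.

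Jak3, the kinase that binds the common gamma chain, rose in all 4 cell types, by 2.76-fold in macrophages, 2.1-fold in moDCs, 2.86-fold in cDC2 and 2.71-fold in cDC1 (adjusted p from 5.15e-07 to 1.12e-04). Stat6 did not pass in any, with 272 ± 21.8 CPM in MI and 257 ± 11.4 CPM in SS macrophages (adjusted p = 0.774). Of the 22 genes of this signalling list 18 were tested. In macrophages 3 rose and 4 fell (median log2 0.12, against -0.03 for all genes), in moDCs 2 rose and 1 fell (0.10, against -0.03), in cDC2 4 rose and 3 fell (0.07, against -0.03) and in cDC1 2 rose and 6 fell (-0.16, against -0.03). Pparg, a nuclear receptor induced by IL-4 in macrophages, rose 2.14-fold in macrophages (adjusted p = 0.00123) and 2.255-fold in cDC1 (adjusted p = 8.15e-04). It fell 2.73-fold in cDC2 (adjusted p = 8.73e-05), and Cish, a feedback inhibitor downstream of STAT5, fell 4.97-fold in cDC2 (adjusted p = 5.62e-04).

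**Figure D3:**
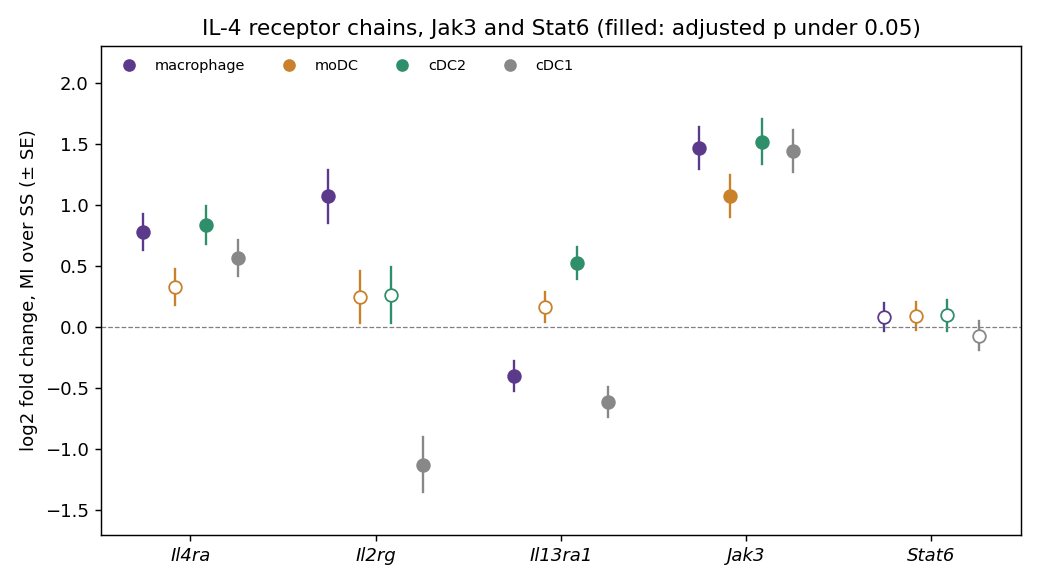
Points show the log2 fold change of MI over SS with its SE for Il4ra, its partner chains Il2rg and Il13ra1, the kinase gene Jak3 and Stat6 in 4 cell types. Filled points passed the adjusted p of 0.05: Jak3 lies above 0 in all 4 cell types and Stat6 lies near 0.

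Arg1 (chromosome 10, 24915221 to 24927484, minus strand) was close to absent from SS macrophages and was present in every MI macrophage library. It had 51.3, 307, 83.9 and 65.1 CPM in MI macrophages, against 0.667, 2.35, 2.31 and 8.55 CPM in SS macrophages. The groups did not overlap, and MI replicate 2 stood above the other MI libraries. The rise was 36.4-fold (log2 5.19 ± 1.06 SE, adjusted p = 0.00248), 19.3-fold without MI replicate 2 and 71.3-fold without SS replicate 4. Against SS libraries 1 and 4 alone it did not pass (27.1-fold, adjusted p = 0.0729).

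Other markers moved with the macrophage results. The 8 monocyte markers summed to 3368 to 3997 CPM in MI and 2341 to 3409 CPM in SS macrophages, overlapping, and none was at 0. Ccr2, the chemokine receptor of recruited monocytes, averaged 2125 CPM in MI and 420.2 CPM in SS, and Ms4a4c 129.7 CPM in MI and 44.5 CPM in SS. F13a1 went the other way, with 1389 CPM in MI and 2361 CPM in SS, and Ly6c2 averaged 7.61 CPM in MI and 6.66 CPM in SS. The 10 cardiomyocyte markers summed to 61.7 to 146 CPM in MI and 173 to 244 CPM in SS macrophages, without overlap. Their part in the changes of Arg1 and the other 6 genes in macrophages was not tested.

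In moDCs Arg1 had 39.0, 210.4, 103 and 75.2 CPM in MI, against 3.61, 14.8, 15.1 and 109 CPM in SS. The groups overlapped through SS replicate 4, which was higher than 3 of the 4 MI libraries, and the difference did not pass (3.02-fold, adjusted p = 0.354). Without SS replicate 4 it was 9.53-fold (adjusted p = 0.0411). The neutrophil markers in the files (11 of the 12 listed) summed to 110 to 122 CPM in MI moDCs, against 89.4, 94.5, 389.7 and 225 CPM in SS moDCs, so that SS replicates 3 and 4 were the high libraries. Csf3r made up most of the sum in MI, at 112 CPM in MI and 121 CPM in SS, and Ngp, Camp, Elane and Lcn2 were at 0 in MI moDCs. S100a8 averaged 0.893 CPM in MI moDCs and 20.3 CPM in SS moDCs. The part of neutrophils in the Arg1 values was not tested.

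In cDC2 Arg1 was low, at 2.07, 10.9 and 19.9 CPM in MI, against 0, 2.66, 4.16 and 0.187 CPM in SS, and the difference did not pass (6.41-fold, adjusted p = 0.134, 3.79-fold without MI replicate 3 and 11.9-fold without SS replicate 3). In cDC1 it stayed under 1 CPM, with 15 reads in all 4 MI libraries and 9 in all 4 SS libraries. Ordered by mean level, Arg1 ran from MI macrophages (127 ± 121 CPM, SD) and MI moDCs (107 ± 73.8 CPM) through SS moDCs (35.6 ± 49.1 CPM), MI cDC2 (10.9 ± 8.89 CPM), SS macrophages and SS cDC2 to cDC1. No neighbouring groups in this order differed beyond their spread, but some groups further apart did. Within SS hearts Arg1 was 10.2-fold higher in moDCs, with replicate 4 the high library, than in macrophages (adjusted p = 0.0269), where 12.9% of all genes differed. Within MI hearts it was 11.6-fold higher in macrophages than in cDC2 (adjusted p = 0.0159) and 9.77-fold higher in moDCs than in cDC2 (adjusted p = 0.0494). The test that the MI effect differs among the 4 cell types did not pass for Arg1 (adjusted p = 0.302).

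Arginine and polyamine genes were followed as the pathway around arginase 1. Of 25 such genes 22 were tested. In macrophages 2 rose and 0 fell (median log2 0.04, against -0.03 for all genes tested), in moDCs 0 rose and 1 fell (median -0.04, against -0.03), in cDC2 0 rose and 6 fell (median -0.29, against -0.03), and in cDC1 2 rose and 4 fell (median -0.11, against -0.03). The gene that rose most in macrophages was Slc7a2, coding for the arginine transporter CAT2, with 5.86 ± 3.14 CPM in MI and 0.605 ± 0.283 CPM in SS macrophages (SD, n = 4 each, 9.57-fold, adjusted p = 2.69e-04). Arg2, the mitochondrial arginase, rose 1.91-fold in macrophages (adjusted p = 0.0446, not passed in 11 of 39 alternatives) and fell 2.06-fold in cDC2 (adjusted p = 0.0274, not passed in 6 of 39). The rise was lost without any 1 of MI macrophage replicates 1, 2 and 4 or SS macrophage replicates 1, 3 and 4. The fall was lost without any 1 of the MI cDC2 libraries or of SS cDC2 replicates 2 and 3.

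Nos2, coding for the inducible nitric oxide synthase that competes with arginase for arginine, was close to absent, with group means of at most 1.68 CPM. Odc1, coding for the ornithine decarboxylase that starts polyamine synthesis, averaged 44.0 ± 9.75 CPM in MI and 35 ± 4.68 CPM in SS macrophages (adjusted p = 0.352), so the enzyme downstream of arginase did not pass where Arg1 rose. In cDC2 the polyamine genes Sat1, the spermidine acetyltransferase, and Azin1, the antizyme inhibitor, fell 2.36-fold (adjusted p = 7.44e-05) and 1.76-fold (adjusted p = 0.00443).

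Genes of the hypoxia response were followed because HIF-1α is a known inducer of Arg1. Of 14 tested, 7 rose and 0 fell in macrophages (median log2 0.56, against -0.03 for all genes), 4 rose and 0 fell in moDCs (0.29, against -0.03), 2 rose and 0 fell in cDC2 (0.00, against -0.03), and 1 rose and 2 fell in cDC1 (-0.09, against -0.03). Hif1a averaged 259 ± 56.3 CPM in MI and 129 ± 21.1 CPM in SS macrophages (2.00-fold, adjusted p = 2.61e-04). Ndrg1, a HIF-1 target, averaged 87.8 ± 9.46 CPM in MI and 11.5 ± 3.13 CPM in SS macrophages (7.61-fold, adjusted p = 4.62e-11), and Vegfa, which the list of alternative activation marks also holds, rose 11.3-fold (adjusted p = 1.98e-05). In moDCs Ndrg1 rose 2.55-fold (adjusted p = 3.84e-05). The part of hypoxia in the Arg1 values was not tested.

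Retnla (chromosome 16, 48842551 to 48844461, plus strand) fell in macrophages, moDCs and cDC2, the 3 cell types that expressed it. In macrophages it had 67.9, 62.0, 41.7 and 112 CPM in MI, against 303, 602, 416 and 363 CPM in SS, 5.93-fold lower (log2 -2.57 ± 0.50 SE, adjusted p = 0.00144). In moDCs it had 171, 79.0, 137 and 220.1 CPM in MI, against 1173, 1453, 3872 and 2233 CPM in SS, 14.4-fold lower (log2 -3.85 ± 0.52 SE, adjusted p = 3.52e-05). In cDC2 it had 214, 96.7 and 197 CPM in MI, against 3423, 6319, 4874 and 3787 CPM in SS, 27.2-fold lower (log2 -4.77 ± 0.62 SE, adjusted p = 6.77e-06). The groups did not overlap in any of the 3 cell types, and all 3 falls passed under each of the 39 alternatives.

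In cDC1 Retnla stayed at or under 3.34 CPM, with 39 reads in MI and 31 in SS libraries, and 36 of the 39 MI reads came from replicate 3. The order of levels began with SS cDC2 (4601 ± 1301 CPM, SD) and SS moDCs (2183 ± 1212 CPM), which did not differ beyond their spread (adjusted p = 0.129, and 0.033 without SS moDC replicate 3). SS macrophages (421 ± 129 CPM) lay 5.19-fold below SS moDCs (adjusted p = 0.00135, and 0.0501 from SS libraries 1 and 4 alone), where 12.9% of all genes differed. MI cDC2 (169 ± 63.3 CPM), MI moDCs (152 ± 59.3 CPM) and MI macrophages (70.8 ± 29.4 CPM) followed, and no neighbours among them differed beyond their spread. The test that the MI effect differs among all 4 cell types passed for Retnla (adjusted p = 0.0203), where 6.80% of all genes passed it.

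Pairwise, the MI effects on Retnla in macrophages and cDC2 differed by log2 2.20 ± 0.71 (SE), which did not pass (adjusted p = 0.0801, and 0.0335 without MI cDC1 replicate 3), and those in moDCs and cDC2 by 0.92 ± 0.69 (adjusted p = 0.695). The pairwise difference that passed was cDC2 against cDC1 (log2 -5.27, adjusted p = 0.0133). It rested on the 36 reads in MI cDC1 replicate 3, without which it was -2.17 (adjusted p = 0.791), and without that library the test over all 4 cell types did not pass either (adjusted p = 0.12). Against SS libraries 2 and 3 alone the pairwise difference had an adjusted p of 0.0962. The test over all 4 cell types had an adjusted p of 0.0775 against SS libraries 1 and 4 alone and 0.137 against 2 and 3 alone.

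Macrophage markers moved with Retnla in cDC2. The summed level of 8 macrophage markers was 4979 to 7910 CPM in MI cDC2 and 18610 to 30850 CPM in SS cDC2, most of it Lyz2 (3461 CPM in MI, 19550 CPM in SS). Adgre1 averaged 105 CPM in MI and 292 CPM in SS cDC2, and C5ar1 32.6 CPM in MI and 86.8 CPM in SS. Fcgr1 (CD64) went the other way, with 84.2 CPM in MI and 36.9 CPM in SS, and none of the 8 was at 0 in either group. The part of macrophage RNA in the cDC2 result was not tested. In moDCs, where Retnla also fell, the 8 markers summed to 17700 to 22470 CPM in MI and 24700 to 32350 CPM in SS, without overlap. Fcgr1 and Cd68 went the other way there, and the part of these markers in the moDC result was not tested. In macrophages, where Retnla fell too, the 8 markers summed to 24030 to 28340 CPM in MI and 27000 to 32720 CPM in SS, which overlapped.

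Chil3 (chromosome 3, 106147554 to 106167564, minus strand) was a low gene that moved in opposite directions in macrophages and cDC2. It had 6.61, 12.1, 11.0 and 6.07 CPM in MI macrophages, against 1.53, 1.37, 2.41 and 3.21 CPM in SS macrophages. The groups did not overlap, and the rise of 4.19-fold (log2 2.07 ± 0.64 SE) lay near the threshold (adjusted p = 0.048). It did not pass in 20 of 39 alternatives, with adjusted p up to 0.165. In cDC2 Chil3 had 0.471, 0 and 0.674 CPM in MI, 12 reads in all, against 2.35, 7.56, 1.53 and 1.22 CPM in SS. This fall of 8.02-fold (adjusted p = 0.016) did not pass without SS replicate 2, the highest library (4.33-fold, adjusted p = 0.104), without MI replicate 1 (0.0574) or 2 (0.0872), against SS libraries 1 and 4 alone (0.133), or in a fit of cDC2 libraries alone (0.0891). Without MI replicate 3 it was 12.6-fold (adjusted p = 0.0254). The neutrophil markers summed to 19.2 to 31.4 CPM in MI cDC2 and 33.7 to 144 CPM in SS cDC2, with S100a9, Ngp, Camp and Elane at 0 in MI and Mpo and Elane at 0 in SS, and the macrophage markers given above were lower in MI cDC2 too. Chil3 is also made by neutrophils and their precursors in mice, and the part of such cells, or of macrophages, in the cDC2 result was not tested.

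The MI effects on Chil3 in macrophages and cDC2 differed by log2 5.07 ± 1.04 (SE, adjusted p = 0.0035), and this difference passed under each of 39 alternatives. For that contrast 4.49% of all genes passed. In moDCs Chil3 had 7.48, 11.8, 3.49 and 5.60 CPM in MI, against 6.76, 7.12, 26.8 and 23.8 CPM in SS (adjusted p = 0.313). The groups overlapped, and the high SS libraries were replicates 3 and 4, the same libraries with the highest neutrophil sums given above. The part of neutrophils in these values was not tested. In cDC1 Chil3 had 0 reads in all 8 libraries, which allows up to 0.0743 CPM over the MI group and 0.0631 CPM over the SS group at a limit of 3 counts, for counting error only.

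Chil3 has near-identical relatives on chromosome 3, so its reads could be split or lost in counting. No library had a read assigned to Chil4, the closest copy (33.9 kb away), or to Chia1. Among the relatives of Retnla, Retnlb had 0 reads and Retnlg, a neutrophil product, reached 12.3 CPM in SS moDC replicate 3, against at most 1.46 CPM in any MI library. Saa1, Saa2 and Saa4 had 0 reads in all 31 libraries, so the serum amyloid reads were assigned to Saa3.

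Mgl2 and Clec10a are sister lectin genes, 18.6 kb apart on chromosome 11 (Mgl2 at 70130329 to 70137550 and Clec10a at 70156197 to 70170834, both on the plus strand), and they parted in macrophages after MI. Mgl2 had 139.5, 155, 158 and 182 CPM in MI macrophages, against 670.2, 832, 684 and 610.3 CPM in SS macrophages. The groups were far apart, with a fall of 4.4-fold (log2 -2.14 ± 0.39 SE, adjusted p = 7.03e-04) that passed under each of 39 alternatives. Clec10a averaged 64.3 ± 16.0 CPM in MI and 59.6 ± 18 CPM in SS macrophages (SD, n = 4 each), with a 95% interval of the log2 difference from -0.38 to 0.59 (adjusted p = 0.874).

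In moDCs neither lectin gene passed. Mgl2 averaged 492 ± 81.2 CPM in MI and 610 ± 93.0 CPM in SS (log2 interval -1.08 to 0.45, adjusted p = 0.745), and Clec10a 72.6 ± 12.2 CPM in MI and 57.7 ± 18 CPM in SS (-0.15 to 0.82, adjusted p = 0.515). In cDC2 Mgl2 had 879.9, 807 and 914 CPM in MI, against 775, 1293, 1412 and 1510 CPM in SS (1.44-fold lower, adjusted p = 0.462). Clec10a had 288, 370.4 and 355 CPM in MI cDC2, against 168, 228, 228 and 226 CPM in SS cDC2. These groups did not overlap, yet the 1.59-fold difference did not pass (adjusted p = 0.0834). It passed with DESeq2 (adjusted p = 0.0423) and in a fit of cDC2 libraries alone (adjusted p = 0.0081).

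In cDC1 both lectin genes were low. Mgl2 had 54 reads in MI and 163 in SS libraries (2.77-fold lower, adjusted p = 0.147, and 4.45e-04 without SS replicate 1, which had 0 reads, and 0.00308 against SS libraries 2 and 3 alone). Clec10a had 8 reads in MI and 47 in SS libraries, with 0.617, 0, 0.0928 and 0.102 CPM in MI, against 0.601, 1.14, 0.695 and 1.75 CPM in SS. This fall of 4.85-fold passed (adjusted p = 0.02) but not without any 1 of MI replicates 2 (0.0757), 3 (0.0748) and 4 (0.0668) or SS replicate 4 (0.0745), nor against SS libraries 2 and 3 alone (0.0752). Without MI replicate 1 the fall was 13.2-fold (adjusted p = 0.00318). Markers of other cells moved in cDC1 too. Cd209a fell 6.44-fold (adjusted p = 5.48e-05). The 8 macrophage markers summed to 996 to 1291 CPM in MI and 1939 to 2339 CPM in SS cDC1. The 10 endothelial markers summed to 6.21 to 10.9 CPM in MI and 59.4 to 255 CPM in SS cDC1. The summed monocyte and cDC2 markers were higher in MI, and so was Fcgr1. The part of other cells in the cDC1 results was not tested.

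The MI effects on Clec10a differed among the 4 cell types (adjusted p = 0.0314), a call that was lost in 8 of 39 alternatives (adjusted p up to 0.0954). It lay between cDC1 and the others, by log2 2.95 ± 0.68 for cDC2 minus cDC1 (SE, adjusted p = 0.00803, passed under each alternative), 2.61 ± 0.68 for moDC minus cDC1 (0.0375, lost in 10 of 39) and 2.39 ± 0.68 for macrophage minus cDC1 (0.0412, lost in 11 of 39). For these contrasts 4.21%, 1.79% and 4.04% of all genes passed. The markers of other cells that moved in cDC1, given above, stand beside these differences too. For Mgl2 the test among the 4 cell types did not pass (adjusted p = 0.0951), but it did without SS cDC1 replicate 1 (2.33e-04) and against SS libraries 2 and 3 alone (0.00211). Mgl2 fell in macrophages and did not pass in moDCs, and the difference between these effects, log2 -1.83 ± 0.53 (SE), did not pass (adjusted p = 0.188, but 0.00326 without SS cDC1 replicate 1 and 0.00929 against SS libraries 2 and 3 alone). SS cDC1 replicate 1 belongs to neither cell type, and without it the difference stayed at log2 -1.83. The groups share an estimate of the spread, which includes that library. For macrophage minus cDC2 the difference was log2 -1.61 (adjusted p = 0.0995, and 0.00152 without SS cDC1 replicate 1).

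Within MI hearts Mgl2 was 3.09-fold lower in macrophages than in moDCs (adjusted p = 0.00507), where 10.8% of all genes differed. Within SS hearts the 2 populations did not differ beyond their spread (1.15-fold higher in macrophages, adjusted p = 0.809). The order of Mgl2 levels ran from SS cDC2 (1248 ± 327 CPM, SD) and MI cDC2 (867 ± 54.7 CPM, n = 3) through SS macrophages, SS moDCs and MI moDCs to MI macrophages and then cDC1, and of the neighbours above cDC1 the last pair alone differed. Clec10a was highest in MI cDC2 (338 ± 43.8 CPM, n = 3) and SS cDC2 (212 ± 29.5 CPM), next in the 4 groups of moDCs and macrophages, among which no neighbours differed, and lowest in cDC1.

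A ratio within each library does not depend on how libraries are scaled. This ratio was chosen after the values of the 2 genes were seen. Its permutation p-values therefore describe a separation already seen and are no separate support. Since the ratio is not corrected for gene length it says nothing of which gene is more abundant. Mgl2 had 1.78 to 3.43 reads per Clec10a read in MI macrophages and 10.1 to 14.4 in SS macrophages, a difference of log2 -2.26 (n = 4 each, two-sided exact permutation test p = 0.0286, the smallest this design can give, 0.0429 adjusted over 3 cell types). In cDC2 the ratio was 2.18 to 3.06 in MI and 4.61 to 6.68 in SS (log2 -1.15, exact permutation p = 0.0286, the smallest possible with 3 against 4, adjusted 0.0429). In moDCs it was 5.78 to 8.53 in MI and 5.91 to 17.6 in SS (log2 -0.68, exact permutation p = 0.114), and SS replicate 3 was the low SS library.

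**Figure D4:**
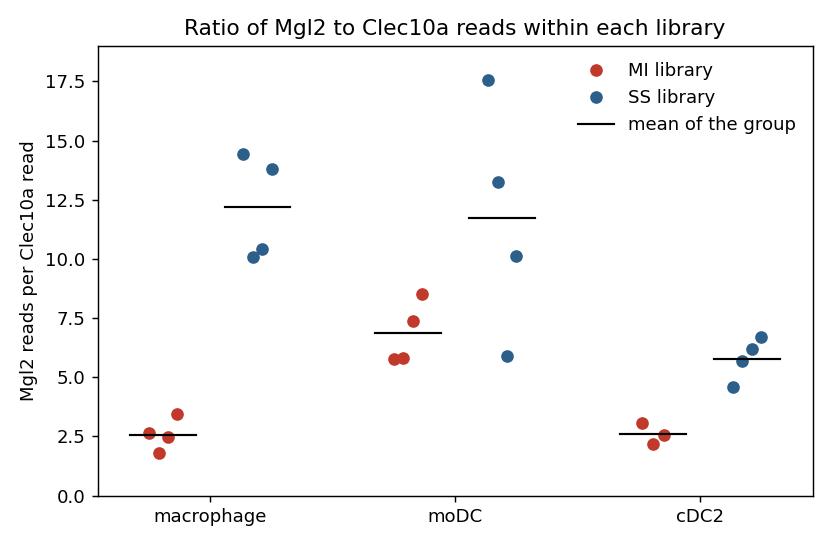
Each point is the number of Mgl2 reads per Clec10a read in 1 library, with MI left of SS and a bar at the group mean. MI macrophages lie at 1.78 to 3.43 and SS macrophages at 10.1 to 14.4, whereas the moDC groups overlap.

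Other marks of alternatively activated macrophages were counted beside these genes. Of 24 such genes, all tested, 6 rose and 5 fell in macrophages (median log2 0.31, against -0.03 for all genes), 0 rose and 3 fell in moDCs (-0.18, against -0.03), 1 rose and 6 fell in cDC2 (-0.66, against -0.03), and 0 rose and 5 fell in cDC1 (-0.45, against -0.03). Cd163, the haemoglobin scavenger receptor, averaged 129 ± 34.2 CPM in MI and 511 ± 85.3 CPM in SS macrophages and fell in all 4 cell types, by 3.97-fold (adjusted p = 1.10e-06) in macrophages and 5.81-fold (adjusted p = 7.54e-08) in moDCs. Ccl8, a monocyte-attracting chemokine, averaged 249.9 ± 64.3 CPM in MI and 37.0 ± 21.6 CPM in SS macrophages (6.76-fold, adjusted p = 0.00128).

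Mrc1, the mannose receptor CD206 and a common mark of such macrophages, did not pass in any cell type, though it did in 3 of 39 alternatives in cDC2 and 1 of 39 in moDCs. It averaged 997 ± 115 CPM in MI and 1277 ± 162 CPM in SS macrophages (adjusted p = 0.558). In cDC2 the eotaxin gene Ccl24 averaged 8.56 ± 3.19 CPM in MI (n = 3) and 80.6 ± 31.4 CPM in SS (n = 4, 9.40-fold lower, adjusted p = 5.61e-05), and the eosinophil-type ribonuclease gene Ear2 fell 6.71-fold (adjusted p = 8.56e-05). The scavenger receptor gene Cd36 fell 3.73-fold in macrophages (adjusted p = 5.84e-06), 14.3-fold in cDC2 (adjusted p = 1.37e-09) and 3.75-fold in moDCs (adjusted p = 1.02e-05). The macrophage markers that were lower in MI cDC2, given above, stand beside these falls too.

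Saa3 (chromosome 7, 46711998 to 46715700, minus strand) had 0 reads in SS macrophage replicates 1 and 4 and was present in every MI macrophage library. It had 24.2, 111, 34.9 and 20.1 CPM in MI macrophages, against 0, 0.490, 6.17 and 0 CPM in SS macrophages. The groups did not overlap, and MI replicate 2 and SS replicate 3 were each the high library of their group. The rise was 28.3-fold (log2 4.82 ± 1.37 SE, adjusted p = 0.0303), and it rested on few libraries. It was 15.7-fold without MI replicate 2 (adjusted p = 0.118) and 14.2-fold against SS libraries 2 and 3 alone (0.108), and it did not pass without SS replicate 1 (0.0784), 2 (0.0937) or 4 (0.0698). Without SS replicate 3 it was 276-fold (adjusted p = 0.00515).

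In moDCs Saa3 had 5.92, 13.7, 2.79 and 2.50 CPM in MI, against 0.541, 0, 12.2 and 0 CPM in SS. All but 6 of the 126 SS reads came from replicate 3, the library with the highest neutrophil sum, and the difference passed without that library (34.1-fold, adjusted p = 0.0421) but not with it (1.99-fold, adjusted p = 0.751). In cDC2 there were 14 reads in MI and 22 in SS libraries, and in cDC1 7 in MI and 6 in SS, too few for a difference to be detectable at this depth. MI replicate 2 was the highest MI library for both Arg1 and Saa3 in macrophages and in moDCs. The test that the MI effect differs among cell types did not pass for Saa3 (adjusted p = 0.347, and 0.0444 against SS libraries 1 and 4 alone), and no neighbours in its order of levels passed. The highest pair, MI macrophages over MI moDCs, had an adjusted p of 0.139, and of 0.0104 where SS libraries 2 and 3 were left out of the fit.

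Stromal markers were read beside Saa3, since stromal cells make it too. In macrophages the sum of 10 fibroblast markers was 589 to 714 CPM in MI and 516 to 602 CPM in SS, most of it Gsn (589 CPM in MI, 491 CPM in SS), a gene that phagocytes also express. Pdgfra, which defines fibroblasts, averaged 0.571 CPM in MI and 0.456 CPM in SS macrophages, and none of the 10 was at 0. Of the 10 means 6 were higher in MI, as for Col1a1 (12.2 CPM in MI, 7.01 CPM in SS), and 4 were lower in MI, as for Dcn (10.3 CPM in MI, 24.9 CPM in SS) and Tcf21 (1.84 CPM in MI, 5.82 CPM in SS). The 8 mesothelial markers summed to 0 to 1.2 CPM in MI and 0 to 1.05 CPM in SS macrophages. Of the MI macrophage libraries, replicate 2 had the highest sum of 10 mural markers (58.3 CPM) and the third highest fibroblast sum (652 CPM). The part of such cells in the Saa3 values was not tested.

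Among 18 tested genes of the acute-phase response and its inducers, 2 rose and 2 fell in macrophages (median log2 0.08, against -0.03 for all genes), 0 rose and 3 fell in moDCs (-0.11, against -0.03), 2 rose and 4 fell in cDC2 (0.19, against -0.03) and 1 rose and 5 fell in cDC1 (-0.49, against -0.03). Stat3, the main transcription factor below IL-6, averaged 246 ± 7.41 CPM in MI and 154 ± 20.3 CPM in SS macrophages (1.60-fold, adjusted p = 0.00188). Socs3 rose 1.49-fold in macrophages (adjusted p = 0.0132, not passed in 2 of 39 alternatives). Cebpd, which codes for another C/EBP factor, averaged 107 ± 13.4 CPM in MI and 211 ± 34.0 CPM in SS macrophages (1.96-fold lower, adjusted p = 5.91e-04). Cebpb, coding for the C/EBPβ factor that acts on Arg1 and Saa3, averaged 1172 ± 116 CPM in MI and 749 ± 117 CPM in SS macrophages and did not pass (1.56-fold, adjusted p = 0.0958, passed in 4 of 39 alternatives), and in cDC2 it averaged 375 ± 52.6 CPM in MI and 1298 ± 302 CPM in SS (3.46-fold lower, adjusted p = 2.73e-05).

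The RNA of the inducers Il1a, Il1b and Il6 was lower or did not pass in macrophages. Il1a averaged 19.9 ± 5.13 CPM in MI and 57.1 ± 3.66 CPM in SS macrophages (2.87-fold lower, adjusted p = 4.26e-04), Il1b 835 ± 156 CPM in MI and 707 ± 188 CPM in SS (adjusted p = 0.544), and Il6 1.29 ± 0.366 CPM in MI and 2.45 ± 2.27 CPM in SS (adjusted p = 0.389). Il1b rose 2.08-fold in cDC1 (adjusted p = 4.35e-04). Il6 averaged 6.44 ± 0.409 CPM in MI cDC2 (n = 3) and 61.5 ± 23.2 CPM in SS cDC2 (n = 4, 9.53-fold lower, adjusted p = 1.72e-04). The part of these inducers, from these or other cells of the heart, in the Saa3 values was not tested.

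Across cell types all 7 genes differed in MI hearts and all but Saa3 (adjusted p = 0.107, and 0.028 without SS macrophage replicate 3) in SS hearts, where 47.5% of all genes in MI and 50.1% in SS did. As a description over the 31 libraries, which fall into sorted cell types, the log2 levels of Mgl2 and Clec10a went together (Pearson r = 0.956), as did those of Retnla and Mgl2 (0.931), while Arg1 went most with Il4ra (0.83) and Retnla least with Saa3 (0.154). The genes whose pattern was most like a member's, among 8883 candidates, were Tcirg1 for Arg1 (r = 0.91 over 31 libraries, 0.891 over the 23 that are not cDC1), Ftl1 for Chil3 (0.919 and 0.776), Hcar2 for Retnla (0.97 and 0.878), Pilrb1 for Mgl2 (0.968 and 0.733), Ccl9 for Clec10a (0.963 and 0.46), Irf2bp2 for Il4ra (0.925 and 0.87) and Brox for Saa3 (0.807 and 0.78). Of the 7 genes Clec10a had the lowest such r without the cDC1 libraries.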

How the data were processed

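Per the labels' protocols, SMART-Seq v4 libraries were made from 4 ng of RNA each and read as 75-base single reads on a NextSeq500. The submitters' processing notes name FastQC 0.11.4, Trimmomatic 0.35, TopHat2 2.1.0, SAMtools 0.1.18 and mm10. The counting tool, the annotation and whether strand was used stand in none of the sources used here, so reads of overlapping or antisense genes and of near-identical copies (Chil3 and Chil4) cannot be told apart. The deposited files hold raw read counts, whole numbers for each gene symbol. 5 entries for unassigned reads (no-feature share 6.42% to 16.9%) stayed out of library sizes and tests.

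From the deposited counts, CPM and tests were computed in R 4.3.3 with edgeR 4.0.16 (TMM factors, filterByExpr with minimum count 10, robust quasi-likelihood test, a mean for each of 8 groups over 31 libraries, Benjamini-Hochberg over 13039 genes, threshold 0.05). The test was also run on simulated counts, with the same spread for every gene (common dispersion 0.116) and independent libraries. That run does not cover genes with a wider spread, such as Arg1 and Saa3, or libraries that share a preparation. DESeq2 1.42.0, other factors, no filter, a replicate block, SS pairs and leaving out each library were alternatives, 39 at most per effect. For MI against SS within a cell type, most of these left out a library of another cell type. Such a fit changes the compared groups little, though the shared estimate of the spread can still move a call. Positions are from GENCODE M21 (GRCm38).

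Named genes are the 7 members, the 4 genes per list and cell type with the smallest adjusted p past 0.05, a fixed set of pathway genes, and the 3 genes most like each member, not all of them printed. Members and lists were chosen with earlier results of these data known. Counts of amplified reads are not independent molecules, so floors cover counting error only. Chi-square per degree of freedom between replicates was at least 10.5, so no libraries were taken as duplicates.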

Additional observations from a re-analysis of the deposited data

Results flagged for a closer look

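In 39 combinations of a gene and a group of 4 libraries with a mean of at least 1 CPM, 6 had a library far from the other 3 by Dixon's criterion. For independent values with a normal spread chance alone gives this in about 1 of 20. CPM of low or variable genes need not have such a spread, so 1 of 20 is not the chance rate of these data. MI macrophage replicate 2 was high for Arg1 (306.7 CPM) and for Saa3 (110.9 CPM). SS moDC replicate 4 was high for Arg1 (108.8 CPM) and SS moDC replicate 3 for Saa3 (12.2 CPM). SS macrophage replicate 3 was high for Saa3 (6.17 CPM). SS cDC2 replicate 1 was low for Clec10a (168.2 CPM).

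The MI effect differed between cell types by the test of the difference itself in 5 cases. Chil3 differed by log2 5.07 between macrophages and cDC2. Retnla differed by -5.27 between cDC2 and cDC1, where 36 of the 39 MI cDC1 reads came from 1 library. Clec10a differed by 2.39 between macrophages and cDC1, by 2.61 between moDCs and cDC1 and by 2.95 between cDC2 and cDC1, with 8 reads in MI cDC1 and 47 in SS cDC1.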

How the results depend on the processing

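Of the alternatives for the 7 genes' MI effects, 1003 kept their side of the threshold, 39 lost a call and 6 gained it. The sign changed in 13 of them, over 5 effects that were not called (Clec10a in macrophages, Saa3 in cDC2, and Arg1, Retnla and Saa3 in cDC1, adjusted p from 0.874), and no called value changed sign. Numbers of changed genes moved by over 1.5 times in moDCs without 1 library (407 to 741, main 631), in cDC2 without 1 library (882 to 1588, main 1440), and for effects differing among cell types against SS libraries 1 and 4 alone (583, main 887). In macrophages 54.3% of 963 calls were rises (523 up, 440 down), but 39.6% with upper-quartile factors (396 up, 604 down). Replicate numbers were not taken as pairs for MI against SS. Between MI and SS 0 of 15 same-numbered pairs were above a correlation of 0.1, and libraries went best with their own number in 5 of 31 comparisons. Within MI 1 of 21 pairs and within SS 14 of 24 were above it, with the own number best in 24 of 45 and 32 of 48 comparisons. Whether equal numbers mark a shared preparation is not stated. The main comparisons between cell types, and of MI effects among them, treat all libraries as independent. With a block for state and number, MI effects differed among cell types in 1020 genes (main 887). With the replicate block, calls numbered 1116 in macrophages, 711 in moDCs, 1801 in cDC2 and 1193 in cDC1, Chil3 did not pass in macrophages (adjusted p = 0.0619), and Saa3 rose 61.7-fold there (adjusted p = 0.00681). The Mgl2 to Clec10a ratio in cDC2 could not reach 0.05 without an MI library (exact permutation p = 0.0667) or an SS library (exact permutation p = 0.1). In moDCs it had an exact permutation p of 0.0286 without SS replicate 3. Within SS, all 8 pairs of macrophages with moDCs or cDC2 were above 0.1 (0.109 to 0.203). A block for state and number changed no call of Retnla or Mgl2 between SS macrophages and moDCs, and brought Saa3 in MI macrophages over MI moDCs past the threshold (adjusted p = 0.0221). Arg1, Chil3, Retnla, Clec10a and Saa3 in cDC1, at or near 1 CPM or lower, are limited by depth.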
